A study of Mus musculus with 12 samples.

Results

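The Slc16 genes encode the monocarboxylate transporters, and 8 of them (Slc16a1, Slc16a3, Slc16a6, Slc16a7, Slc16a10, Slc16a11, Slc16a12 and Slc16a13) were examined together with Bsg, which encodes basigin, the partner protein that carries several of these transporters to the plasma membrane. The 9 genes were chosen by symbol among 22471 features, and the files hold 14 Slc16 genes in all. The choice was made with earlier results of these libraries known, including the low level of Slc16a12 under benzbromarone, so the levels and differences of these 9 genes are given as a description, without p-values. All 9 passed the filter on low counts in every comparison.

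Slc16 proteins move small acids across membranes, some of them together with a proton. MCT1 (Slc16a1), MCT2 (Slc16a7) and MCT4 (Slc16a3) carry lactate, pyruvate and ketone bodies. MCT1 and MCT2 have a high affinity and are often linked with uptake, whereas MCT4 is the carrier best known for lactate export from glycolytic cells. Other members of the family carry aromatic amino acids, creatine or still unsettled substrates, and a liver cell uses such carriers to exchange fuels and amino acids with the blood.

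Primary hepatocytes isolated from 6-week-old male C57BL/6J mice were sequenced in 12 libraries, 3 in each of 4 groups. Control cells received neither agent, OA cells received 0.2 mM oleic acid, a fatty acid used to fill the cells with lipid, BBR cells received 15 µM benzbromarone, a uric acid-lowering drug, and BBR+OA cells received both, each for 16 h. The oleic acid was mixed with bovine serum albumin beforehand, and whether cells without oleic acid received albumin is not stated. All groups were untransformed cells of the same strain, and no transgene or deletion was used. The replicates are described as biological, but whether each came from its own mouse is not stated, so the spread between them may in part be technical. Total counts ran from 15485508 to 23668379 per library. Levels are given as CPM (counts scaled by library size and composition). A count of 0 allowed a level of up to 0.127 to 0.194 CPM, here scaled by library size only and covering counting error only. No pair of replicates matched within sampling noise (12 pairs), so none was merged. The summed level of 9 hepatocyte markers was 35600 to 44100 CPM in every library, against 101 to 183 CPM for 10 Kupffer cell or macrophage markers. In bulk RNA, fewer cells of a type and less RNA per cell cannot be told apart.

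The genes lie on 4 mouse chromosomes and are all annotated as protein-coding (GRCm38, GENCODE M21). Slc16a1 lies at chr3:104638668-104658462 on the plus strand and Slc16a12 at chr19:34668403-34747289 on the minus strand. Chromosome 10 holds Slc16a10 (chr10:40033532-40142258, minus), Slc16a7 (chr10:125219270-125389465, minus) and Bsg (chr10:79704491-79711969, plus). Chromosome 11 holds Slc16a3 (chr11:120948480-120960868, plus), Slc16a6 (chr11:109450855-109473598, minus) and the neighbours Slc16a11 (chr11:70212752-70216417, plus) and Slc16a13 (chr11:70216789-70221064, minus). The last pair is transcribed toward each other, and their 3′ ends are 371 bases apart.

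Promoter windows were available for 5 of the 9 genes, and the 250 bases before the RefSeq start (GRCm38.p6) are shown for the genes whose levels differed most with benzbromarone, Slc16a12 and Slc16a3, and for Slc16a1, whose level moved little. They cover chr19:34747329-34747578 (minus strand), chr11:120948817-120949066 (plus) and chr3:104638414-104638663 (plus). Capitals mark matches to the motifs searched.

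Slc16a12: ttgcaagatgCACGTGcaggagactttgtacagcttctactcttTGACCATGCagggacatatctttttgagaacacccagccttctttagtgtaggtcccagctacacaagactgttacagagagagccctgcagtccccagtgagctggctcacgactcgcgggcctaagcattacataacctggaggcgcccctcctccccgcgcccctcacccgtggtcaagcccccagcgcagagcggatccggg

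Slc16a3: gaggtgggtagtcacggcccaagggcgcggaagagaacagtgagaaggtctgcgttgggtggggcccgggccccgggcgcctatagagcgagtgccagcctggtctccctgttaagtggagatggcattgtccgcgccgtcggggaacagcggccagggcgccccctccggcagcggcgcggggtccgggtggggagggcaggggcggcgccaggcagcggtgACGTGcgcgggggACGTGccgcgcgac

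Slc16a1: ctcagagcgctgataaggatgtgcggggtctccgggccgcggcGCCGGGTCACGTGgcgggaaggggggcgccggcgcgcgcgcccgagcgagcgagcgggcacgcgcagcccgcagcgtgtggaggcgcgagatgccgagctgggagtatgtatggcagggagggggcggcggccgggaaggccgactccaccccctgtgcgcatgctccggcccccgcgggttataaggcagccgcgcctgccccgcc

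The search used both strands of the 300-base windows, which also hold 50 bases after the start. The motifs were AGGTCA, its direct repeat with 1 base between (the site that PPARs, a family of fatty acid-sensing receptors, bind with RXR), the E-box CACGTG, the hypoxia element core ACGTG, which lies inside CACGTG, the antioxidant element core TGACNNNGC and the ATF4 element TGATGNAA. Slc16a12 held CACGTG at -240 to -235 and TGACNNNGC at -206 to -198 and, on the other strand, at 23 to 31, counted from the start. Slc16a3 held ACGTG at -27 to -23 and at -14 to -10. Slc16a1 held CACGTG at -200 to -195, overlapped by TGACNNNGC on the other strand at -207 to -199, and ACGTG at 20 to 24. The windows of Slc16a10 and Slc16a11 held none of the motifs, and no window of the 5 held AGGTCA or its repeat. Of 32851 mouse promoter windows of this length, 19.6% held ACGTG, 12.4% TGACNNNGC, 7.15% CACGTG, 16.3% AGGTCA, 3.97% TGATGNAA and 0.0396% the direct repeat. The G and C content was 73.7% in Slc16a1, 73.3% in Slc16a3 and 60.0% in Slc16a12, against a median of 52.7% over all windows. The RefSeq starts of Slc16a3 and Slc16a11 lie 587 and 1158 bases inside their GENCODE genes, so other starts of these genes are outside the windows.

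Levels of different genes were compared by the deposited FPKM (fragments scaled by transcript length and library size), which accounts for transcript length. In control cells basigin was by far the most abundant, at 1275 ± 8.78 FPKM (SD, n = 3), followed by Slc16a3 at 95.6 ± 1.49 FPKM and Slc16a1 at 33.6 ± 1.43 FPKM. Next came Slc16a10 at 13.8 ± 0.959 FPKM and Slc16a6 at 11.8 ± 1.17 FPKM, whose libraries overlapped. The low end held Slc16a11 (3.20 ± 0.756 FPKM), Slc16a12 (1.83 ± 0.15 FPKM), Slc16a7 (1.44 ± 0.182 FPKM) and Slc16a13 (0.817 ± 0.386 FPKM). Slc16a11, Slc16a12 and Slc16a7 kept this order without overlap in control cells. Slc16a13 was below Slc16a7 in every control library, but in replicate 2 the values were nearly equal, at 1.22 and 1.23 FPKM.

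The order changed only among these low genes. In BBR cells Slc16a12 dropped to 0.497 ± 0.0651 FPKM, overlapping Slc16a13 at 0.327 ± 0.15 FPKM and falling below Slc16a7 at 1.03 ± 0.0551 FPKM. In OA cells Slc16a7 at 2.36 ± 0.172 FPKM and Slc16a12 at 2.39 ± 0.164 FPKM overlapped, and in BBR+OA cells they did so again, at 2.21 ± 0.178 and 2.0 ± 0.159 FPKM.

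**Figure D1:**
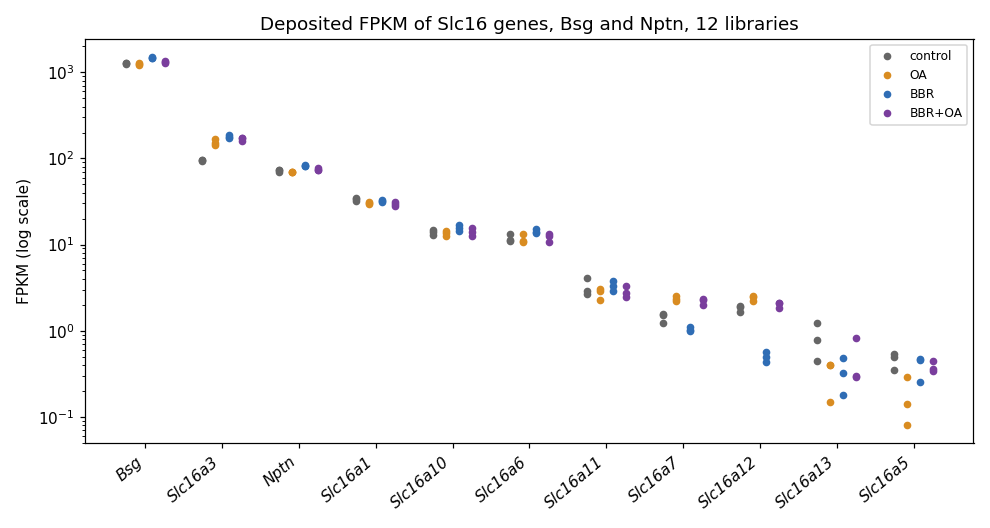
Deposited FPKM on a log scale for the 8 Slc16 genes, Slc16a5 and the ancillary genes Bsg and Nptn, 1 point per library, coloured by group. Bsg lies near 1275 FPKM and Slc16a3 near 95.6 FPKM in control cells, and Slc16a12 has its 3 BBR libraries below all of its others.

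Benzbromarone was first compared with control to see which carriers differed when the drug was given without added lipid. Slc16a3 and, to a lesser degree, Slc16a6 and Bsg were higher with BBR, Slc16a12 was much lower, Slc16a7 was lower by less, and Slc16a1, Slc16a10, Slc16a11 and Slc16a13 were not called. A gene was called at an adjusted p under 0.05 in edgeR's quasi-likelihood test over all genes tested. By that rule 5 of the 9 genes were called, 3 higher and 2 lower, where 27.7% of the 12555 genes tested were called in this comparison, 13.2% higher and 14.5% lower. The genes were listed with this contrast known, so nothing is read from the count.

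Among the lactate and ketone carriers, Slc16a3 had 147, 152 and 154 CPM in control cells and 265, 285 and 296 CPM in BBR cells. Every BBR library lay above every control library, with a log2 fold change of 0.91 (SE 0.049). Slc16a1, the partner carrier of the same substrates, had 148, 140 and 153 CPM in control and 139, 136 and 145 CPM in BBR cells, and these ranges overlapped (log2 fold change -0.06, SE 0.048). Slc16a7 had 4.41, 4.29 and 4.97 CPM in control and 3.54, 3.22 and 3.28 CPM in BBR cells. Its groups did not overlap and its log2 fold change was -0.44 (SE 0.15), but the call was lost in DESeq2 and when any 1 of the 6 libraries was left out (-0.48 to -0.37).

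Slc16a6 encodes MCT7, a carrier that has been linked with ketone body export from liver. It had 37.4, 32.0 and 31.7 CPM in control and 41.6, 44.6 and 39.2 CPM in BBR cells, a log2 fold change of 0.32 (SE 0.072) with no overlap between groups. Slc16a6 overlaps Amz2 and Arsg on the opposite strand. Amz2 was called in the same direction (log2 fold change 0.24), Arsg was not called (0.16), and, as the strand setting of the counting is not given, reads of the overlapping stretches cannot be told apart.

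Slc16a12, a carrier of creatine and related guanidino compounds, showed the largest difference of the 9 genes. Its level was 7.73, 6.63 and 7.54 CPM in control cells and 2.02, 2.25 and 1.72 CPM in BBR cells. The lowest control library was well above the highest BBR library, and the log2 fold change was -1.86 (SE 0.16), which ran from -1.94 to -1.77 over the other count settings. With a 2-fold change required as well, Slc16a12 was the only member still called in this comparison. The share of all genes meeting both rules is not given here. Slc16a12 was listed with its low level under BBR known, so nothing is read from that call.

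Slc16a10, which carries aromatic amino acids without a proton, stayed at 53.2 to 55.4 CPM in control and 51.5 to 54.1 CPM in BBR cells (log2 fold change -0.04, SE 0.051). The liver-expressed Slc16a11 had 4.68 to 5.22 CPM in control and 3.77 to 4.89 CPM in BBR cells (log2 fold change -0.22, SE 0.15). Slc16a13 had few counts, 22, 26 and 25 in control and 10, 19 and 15 in BBR libraries, and its log2 fold change of -0.49 carried an SE of 0.33. For these genes the groups overlapped, and for Slc16a13 only a large difference could have been detected at this depth.

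Bsg had 1613, 1635 and 1626 CPM in control and 1884, 1913 and 1882 CPM in BBR cells. The groups were well apart for a modest difference, a log2 fold change of 0.23 (SE 0.047). In all, 5 of 9 genes had groups that did not overlap, where 41.5% of all genes tested did.

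**Figure D2:**
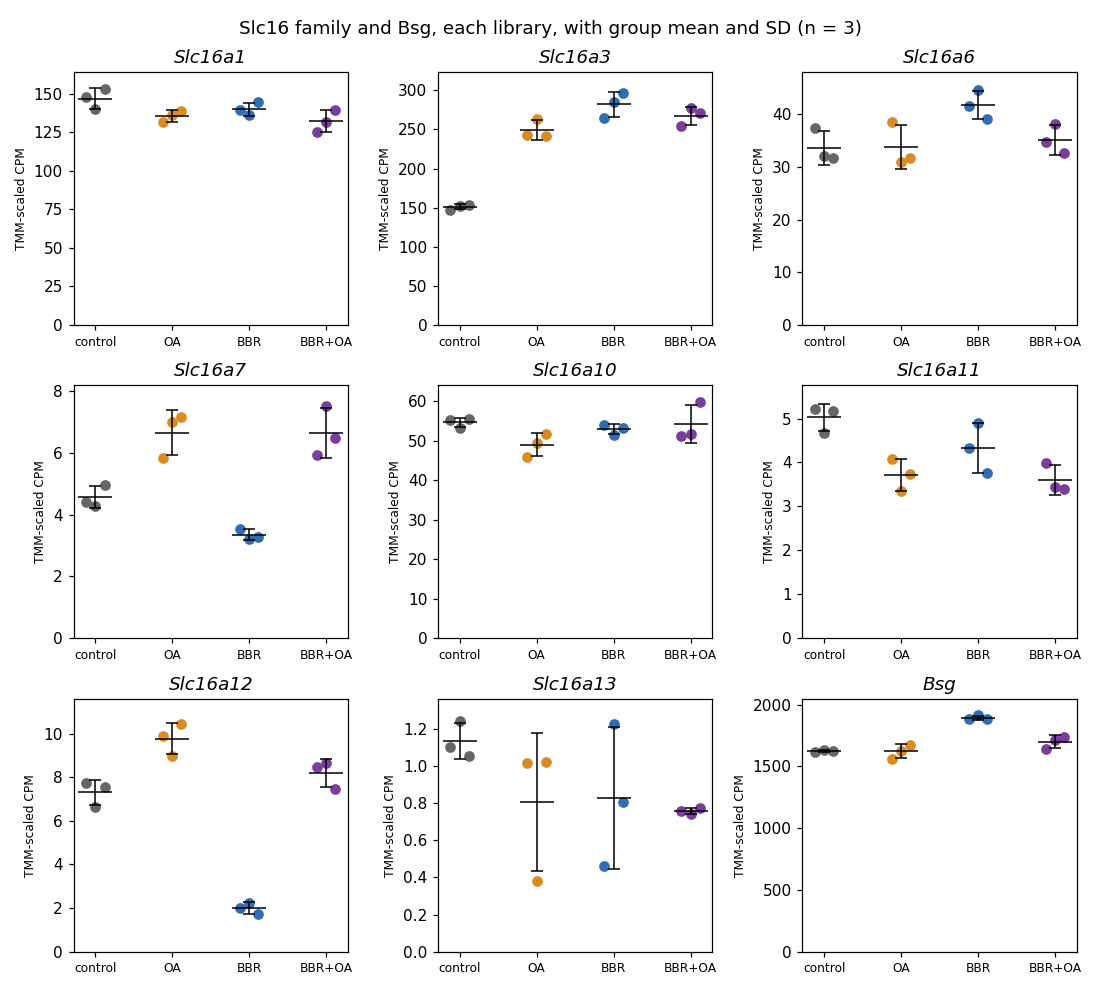
Composition-scaled CPM of the 9 genes in each of the 12 libraries, with the mean and SD of 3 libraries per group; each axis starts at 0. Slc16a3 lies at 147 to 154 CPM in control and above 240 CPM in the other groups, and Slc16a12 at 1.72 to 2.25 CPM in BBR cells and above 6 CPM elsewhere.

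The same drug comparison was then made in lipid-loaded cells, BBR+OA against OA. None of the 9 genes was called in edgeR, where 4.59% of 12278 genes were (1.95% higher and 2.63% lower). At an unadjusted p under 0.05 the count was 1, and DESeq2 called 0, with 1 gene left without an adjusted value. The shares of all genes at these cuts are not given here, so nothing is read from these counts. Slc16a12 had 9.90, 8.98 and 10.4 CPM with OA and 8.45, 8.66 and 7.44 CPM with BBR+OA, groups that did not overlap but differed by only -0.26 on the log2 scale (SE 0.11). It was the only gene of the 9 without overlap, where 23.9% of all genes tested had none.

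Slc16a3 was high in both groups of lipid-loaded cells, with 242, 264 and 241 CPM in OA and 254, 277 and 271 CPM in BBR+OA cells. The drug added little to that level (log2 fold change 0.10, SE 0.051), and the libraries overlapped. Slc16a7 had 5.83 to 7.15 CPM with OA and 5.92 to 7.50 CPM with BBR+OA, a log2 fold change of -0.01 (SE 0.13). The other 6 genes had log2 fold changes between -0.09 for Slc16a13 and 0.14 for Slc16a10.

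Whether the drug difference itself depended on oleic acid was examined with the interaction of BBR and OA over all 12 libraries, that is, the log2 fold change with OA minus that without. For Slc16a3 this difference of fold changes was -0.80 (SE 0.072), and for Slc16a12 it was 1.62 (SE 0.18). These were the 2 genes called of the 9, 1 in each direction, where 12.2% of 12742 genes were (6.87% higher and 5.31% lower). Bsg stood at -0.15 (SE 0.060), and was called only with DESeq2 (-0.17) or with the replicate number in the model. Slc16a7 (0.44, SE 0.19), Slc16a6 (-0.25, SE 0.12), Slc16a10 (0.19, SE 0.086), Slc16a11 (0.18), Slc16a13 (0.41) and Slc16a1 (0.03) were not called.

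Oleic acid was compared with control to see how the carriers differed with it in cells without the drug. Slc16a3, Slc16a7 and Slc16a12 were higher with OA, Slc16a11 was lower, and Bsg and Slc16a6 were nearly level. Of the 9 genes, 4 were called, 3 higher and 1 lower, where 42.8% of 12418 genes were, 21.3% higher and 21.5% lower. The groups did not overlap for 7 of the 9, against 52.2% of all genes tested. This comparison shares its control libraries with that of BBR against control.

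Slc16a3 had a mean of 151 ± 3.23 CPM in control and 249.1 ± 12.7 CPM in OA cells (SD, n = 3), and the log2 fold change was 0.73 (SE 0.050). Slc16a7 went from 4.56 ± 0.359 to 6.65 ± 0.719 CPM, a log2 fold change of 0.55 (SE 0.13) and the opposite sign to its difference with BBR. Slc16a12 likewise went up with OA and down with BBR, reaching 9.77 ± 0.726 CPM from 7.30 ± 0.584 CPM, a log2 fold change of 0.43 (SE 0.11). All 3 kept their calls in the other count settings, none of them with a 2-fold change required.

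Slc16a11 had 5.22, 4.68 and 5.18 CPM in control and 4.07, 3.35 and 3.73 CPM in OA cells. Its log2 fold change of -0.43 (SE 0.15) was called, though not in DESeq2 and not without control replicate 1 (-0.40), control replicate 3 (-0.40), OA replicate 2 (-0.36) or OA replicate 3 (-0.43). Slc16a10 fell short of the threshold at -0.15 (SE 0.058), with 45.8, 49.4 and 51.6 CPM in OA cells. It was called lower without OA replicate 3 (-0.19), with upper quartile scaling (-0.20) and in the fit of all 12 libraries (-0.16). Slc16a1 had 132, 136 and 139 CPM in OA cells, just under its control libraries (log2 fold change -0.11, SE 0.051), and was called lower with upper quartile scaling (-0.16). Slc16a6 (0.01, SE 0.089) and Bsg (0.01, SE 0.050) overlapped between the groups.

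Cells that had the drug were then compared with and without oleic acid (BBR+OA against BBR). Slc16a12 was at 2.0 ± 0.267 CPM in BBR cells and 8.19 ± 0.651 CPM in BBR+OA cells (SD over 3 libraries). Its log2 fold change was 2.04 (SE 0.16). Slc16a7 went from 3.35 ± 0.172 to 6.64 ± 0.801 CPM, a log2 fold change of 0.98 (SE 0.15). Slc16a6 (-0.25, SE 0.068) and Bsg (-0.16, SE 0.042) were lower. These 4 genes were called, 2 in each direction, where 38.9% of 12416 genes were (20.1% higher and 18.8% lower), and the same number of the 9 did not overlap, against 49.6% of all genes. The call of Slc16a6 was lost without BBR+OA replicate 3 (-0.20), and Amz2, which overlaps it, was lower as well (-0.29).

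Slc16a3 did not follow these genes. It stayed at 254 to 277 CPM with BBR+OA against 265 to 296 CPM with BBR alone, a log2 fold change of -0.08 (SE 0.049). Bsg in BBR+OA cells had 1641, 1718 and 1741 CPM, between the control and the BBR libraries.

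**Figure D3:**
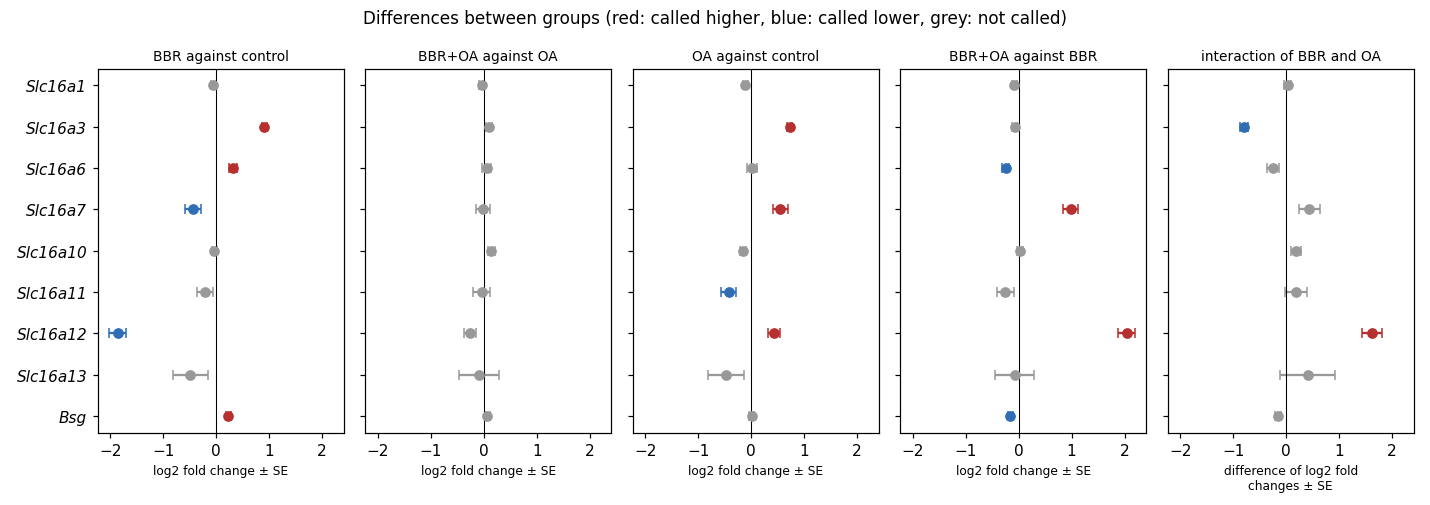
Log2 fold change with its SE for each of the 9 genes in the 4 comparisons and, at the right, the difference of log2 fold changes for the interaction; red marks genes called higher, blue called lower and grey not called. Slc16a12 stands at -1.86 for BBR against control, -0.26 for BBR+OA against OA and 2.04 for BBR+OA against BBR.

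The balance of the main carriers was followed within libraries, by the ratio of FPKM. The ratio of Slc16a3 to Slc16a1 was 2.76, 2.99 and 2.80 in control, 5.17, 5.51 and 4.68 in OA, 5.38, 5.79 and 5.75 in BBR and 5.60, 5.87 and 5.49 in BBR+OA libraries. Every treated library was above every control library, and the treated groups overlapped each other. Bsg, the partner of both carriers, exceeded their summed FPKM 9.87 ± 0.230 times in control cells (SD, n = 3). This excess was 6.75 ± 0.509 in OA, 7.02 ± 0.334 in BBR and 6.65 ± 0.139 in BBR+OA cells.

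**Figure D4:**
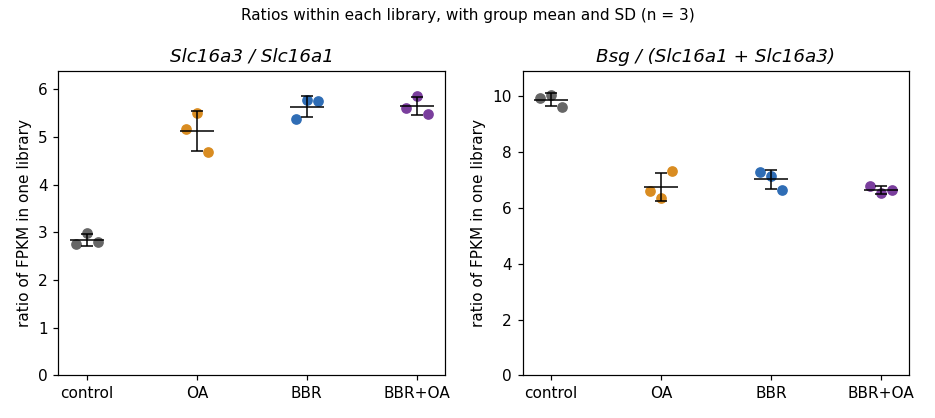
Ratios of deposited FPKM within each library, Slc16a3 to Slc16a1 at the left and Bsg to the sum of both at the right, with the mean and SD of 3 libraries per group. The first ratio is 2.76 to 2.99 in control and 4.68 to 5.87 in the treated libraries.

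Macrophages also express Slc16a3, and markers of other cells moved with the groups. The 10 Kupffer cell or macrophage markers summed to 101 to 119 CPM in control, 109 to 123 in OA, 141 to 183 in BBR and 116 to 123 CPM in BBR+OA libraries, none of them at 0 in all libraries. Cd68 made up most of the BBR sum, at 131 CPM against 80.1 CPM in control. Marco, Lyz2 and Adgre1 were higher in the OA and BBR+OA groups, at 6.89, 11.2 and 6.36 CPM with OA against 1.20, 3.55 and 2.40 CPM in control. The other 6 markers were lower with OA than in control: the complement genes C1qa, C1qb and C1qc at 3.42, 3.98 and 3.73 CPM against 5.48, 5.58 and 5.65 CPM, and Cd5l, Clec4f and Vsig4 at 2.87, 0.442 and 0.505 CPM against 5.98, 1.11 and 1.15 CPM. The complement genes were at 5.30 to 6.07 CPM in BBR cells. The macrophage sum in OA cells overlapped that of control, and Cd68 made up most of it in both groups, at 78.1 and 80.1 CPM. The sum of the 5 bile duct markers was 590 to 722 CPM in control, 391 to 421 in BBR, 242 to 272 in OA and 199 to 240 CPM in BBR+OA libraries. Spp1 made up most of it and was lower in every treated group, whereas Sox9 was at 32.3 CPM in control, 48.6 in OA, 48.8 in BBR and 42.6 CPM in BBR+OA cells. Krt19 (6.91 CPM in control) was also higher in the treated groups (8.05, 11.2 and 8.51 CPM in the same order), Epcam went from 1.86 CPM in control to 3.53 CPM in BBR cells, and Krt7 was near 0 throughout. The part of other cells in the carriers' differences was not tested.

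The deposited FPKM and the counts do not tell the same story for every gene, because the ratio of count to FPKM, which stands for the transcript length used, varied between libraries. This implied length was constant for Slc16a1 (4.43 kb) and nearly so for Slc16a12 (4.01 to 4.08 kb) and Slc16a3 (1.56 to 1.64 kb). It ran from 2.62 to 3.53 kb for Slc16a7 and from 3.21 to 4.36 kb for Slc16a10. The range was 1.02 to 1.82 kb for Slc16a11 and 0.913 to 2.58 kb for Slc16a13. With OA, Slc16a7 was called higher on both measures, by 0.68 on FPKM and by 0.55 on counts. On FPKM, Slc16a13 was called lower with OA (-1.12, limma on log2(FPKM + 0.1)), where counts gave -0.48 without a call. Its implied length was 2.51 to 2.53 kb in the OA libraries and 1.03, 1.35 and 2.51 kb in control. The calls of Slc16a11 with OA (-0.22), of Slc16a7 with BBR (-0.44) and of Slc16a6 in BBR+OA against BBR (-0.22) were not made on FPKM.

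Other genes of the family and the ancillary genes Nptn and Emb were tested in the same fits. Nptn, which encodes neuroplastin, a relative of basigin that also partners these carriers, rose with BBR from 95.7 ± 1.77 to 110.5 ± 2.0 CPM (log2 fold change 0.21, edgeR adjusted p = 0.00181). It was lower in BBR+OA than in BBR cells (-0.13, adjusted p = 0.0326), a call lost in DESeq2 and when BBR replicate 2 (-0.11) or 3 (-0.14), or BBR+OA replicate 1 (-0.12) or 3 (-0.10), was left out. Slc16a5 had 3 to 19 counts and was not called in the comparisons where it passed the filter. In OA against control it did not pass, but it was called lower in the fit of all 12 libraries (-1.11) and when control replicate 3 (-1.42) or OA replicate 3 (-1.63) was left out. Slc16a4 (0 to 7 counts), Slc16a8 and Slc16a9 (0 to 4), Slc16a14 (0 to 1) and Emb (0 to 3) did not pass the filter in any comparison.

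Genes that make or use what these carriers move were examined in 6 further lists. Among all genes tested, as given above, 27.7% were called with BBR, 42.8% with OA and 4.59% in BBR+OA against OA, and the lists' counts stand beside these shares. The lists were chosen with earlier results of these data known, so nothing is read from their counts. Of 11 tested genes for lactate and pyruvate, 3 rose and 4 fell with BBR. Pdk4, a kinase that slows pyruvate oxidation, rose by 3.52 (edgeR adjusted p = 2.97e-15), and the alanine transaminases Gpt2 (-0.96, adjusted p = 9.25e-08) and Gpt (-0.52, adjusted p = 5.16e-05) fell. With OA alone 8 rose and 1 fell. Among them were the pyruvate carrier subunit Mpc2 (1.02, edgeR adjusted p = 8.61e-08), Pck1 of gluconeogenesis (1.09, adjusted p = 0.00756) and, downward, pyruvate carboxylase Pcx (-0.78, adjusted p = 2.82e-08). Pck1 had a low level, at 0.904 CPM in control and 1.91 CPM in OA cells. In BBR+OA against OA 1 gene of the list was called, Pdk4 (1.39, adjusted p = 1.31e-06).

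Of the 7 genes for ketone bodies, 3 rose and 2 fell with BBR. The dehydrogenase Bdh1 fell (-1.0, edgeR adjusted p = 2.92e-05), while Oxct1, which uses ketone bodies, rose (0.85, adjusted p = 2.36e-05). With OA 5 of the 7 fell, led by Bdh1 (-1.33, adjusted p = 8.46e-06). In BBR+OA against OA 1 rose and 1 fell, the latter being Aacs (-0.25, adjusted p = 0.0188), a count of 2 that was 1 in the fit of all 12 libraries and without BBR+OA replicate 1 or 2.

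Of the 12 genes for aromatic amino acids, the substrates of Slc16a10, 5 fell and 0 rose with BBR, where 14.5% of all genes tested were called lower. The carrier Slc43a1 (-0.92, edgeR adjusted p = 0.0132) and the catabolic enzyme Hgd (-0.79, adjusted p = 0.00825) were among them. The count was 3 in DESeq2, 3 without control replicate 2 or BBR replicate 3, and 2 without BBR replicate 2. With OA 5 rose and 2 fell, Tdo2 most (-1.70, adjusted p = 5.36e-09).

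A further list held genes for handling creatine, the substrate of Slc16a12, or guanidinoacetate, and not all of its carriers are creatine carriers. Of its 6 tested genes, 2 fell with BBR. They were Gamt, the enzyme that completes creatine synthesis (-0.49, edgeR adjusted p = 0.0384, groups overlapping), and the carrier Slc6a13 (-0.39, adjusted p = 0.00143). That count was 1 without control replicate 1 or 2 or without BBR replicate 2 or 3. With OA 4 fell, including Ckb (-1.57, adjusted p = 0.00093), Gamt (-0.38, adjusted p = 0.0188) and the creatine carrier Slc6a8 (-0.28, adjusted p = 0.00273). In BBR+OA against OA edgeR called 0 of the 6, with 0 at an unadjusted p under 0.05 and 0 in DESeq2, where 2 had no adjusted value.

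Of the 10 tested genes for thyroid hormone transport and response, 6 fell with BBR, against 14.5% called lower of all genes tested, among them the carrier Slco1b2 (-0.90, edgeR adjusted p = 0.0118), the receptor Thrb (-0.68, adjusted p = 1.96e-05) and the deiodinase Dio1 (-0.57, adjusted p = 0.0343). The count was 3 without control replicate 2. With OA 2 rose and 4 fell. In BBR+OA against OA 1 gene was called, Thrb (-0.34, adjusted p = 0.0306). The count was 2 with no filter on low counts and 0 in DESeq2 or when OA replicate 1 or 2 or BBR+OA replicate 2 or 3 was left out.

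Of the 8 genes for carnitine, 4 rose and 2 fell with BBR, with Slc22a5, the carnitine carrier (0.60, edgeR adjusted p = 0.000136), and Cpt1a, which starts fatty acid entry into mitochondria (0.54, adjusted p = 1.25e-05), higher and Bbox1 of carnitine synthesis lower (-1.12, adjusted p = 0.00174). In BBR+OA against OA 5 rose and 0 fell, again with Cpt1a (0.79, adjusted p = 2.58e-06) and Slc22a5 (0.60, adjusted p = 0.00226), although the count was 3 without BBR+OA replicate 2 or 3. With OA alone 1 rose and 3 fell.

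The lists' median log2 fold changes with BBR were -0.07 for lactate and pyruvate, 0.18 for ketone bodies, -0.17 for aromatic amino acids, -0.31 for creatine, -0.36 for thyroid hormone and 0.18 for carnitine. With OA they were 0.23, -0.39, -0.06, -0.33, -0.22 and -0.23 in the same order. The median of the 9 carrier genes was -0.06 with BBR, 0.01 with OA, -0.01 in BBR+OA against OA and -0.08 in BBR+OA against BBR. Over all genes tested, the median lay between -0.01 and 0.01 in each of these comparisons and in the interaction.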

How the data were processed

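RNA sequencing was made on 12 libraries of primary mouse hepatocytes. For each library the authors deposited an estimated count and an FPKM value per gene. The submitters' processing notes name the build mm10, while the aligner, the counting program and the strand setting are not given in the sources used here. Deposited counts were rounded, since 2862 features held fractions. FPKM was used to compare genes and for ratios.

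For a comparison of 2 groups, their 6 libraries entered 1 fit with edgeR 4.0.16 in R 4.3.3, using filterByExpr (minimum count 10), TMM scaling, the two-sided quasi-likelihood F test and Benjamini-Hochberg adjustment over all genes. SEs came from the F statistic. The interaction used all 12 libraries. Fits were tested on simulated data. Alternatives were DESeq2 1.42.0, other scalings, no filter, a replicate block, leaving out each library and, added after seeing the data, limma 3.58.1 on log2(FPKM + 0.1) for genes with a mean of at least 0.1 FPKM.

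The 9 genes and the 7 wider lists were chosen with earlier results of these data known. At most 3 genes were named per list and comparison, those with the largest change at an adjusted p under 0.05 (some genes are not reported here). Of 21911 Ensembl identifiers, 99.71% were found in GENCODE M21. Promoter sequences are from RefSeq (GRCm38.p6).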

Additional observations from a re-analysis of the deposited data

Results flagged for a closer look

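The drug's effect with OA differed from that without OA in 2 of the 9 genes, where 12.2% of 12742 genes tested were called. The difference of log2 fold changes was -0.80 for Slc16a3, which was called higher with BBR in cells without OA and not called in cells with OA, and 1.62 for Slc16a12, which was called lower in cells without OA and not called in cells with OA; these values are descriptions, since the genes were chosen with them known.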

How the results depend on the processing

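Of 630 recomputed log2 fold changes of the 9 genes, 609 moved by less than the spread between replicates, 21 moved by more and 0 reversed while called; 16 of the 21 came from FPKM. The number of genes called was within 1.5 times its value under every setting except a required 2-fold change. That rule left 1 for BBR against control, 0 for OA against control, 1 for BBR+OA against BBR and 1 for the interaction. The gene was Slc16a12 wherever any was left. The share of all genes left by that rule is not given here, so nothing is read from these counts. Leaving out 1 library gave 4 to 4 called for BBR against control, 0 to 0 for BBR+OA against OA, 3 to 4 for OA against control, 3 to 4 for BBR+OA against BBR and 2 to 2 for the interaction. Upper quartile scaling, which put the median of all genes at -0.05 in the OA comparisons, added calls of Slc16a1 (-0.16) and Slc16a10 (-0.20) with OA and of Slc16a1 (-0.13) in BBR+OA against BBR, all lower.

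Replicates with the same number correlated weakly (0.023 to 0.155) in their deviations, not above 0.1 in every pair of any comparison, so the numbers were not taken to pair the samples. Every library correlated best with its own number in 3 of the 4 comparisons, a hint from the data and not the design. With the replicate number as a block, 5 genes were called for BBR against control, 0 for BBR+OA against OA, 6 for OA against control, 4 for BBR+OA against BBR and 3 for the interaction; the added calls were Slc16a1 (-0.11) and Slc16a10 (-0.15) with OA and Bsg (-0.15) in the interaction. In BBR+OA against OA the block called 2 genes of the lactate and pyruvate list in place of 1, 1 of the aromatic amino acid list in place of 0 and 3 of the thyroid hormone list in place of 1. The share of all genes called with the block is not given here, so these counts cannot be set beside the shares without it. Low depth limits Slc16a13 most, with 7 to 26 counts per library.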

Other observations

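By Pearson correlation of log2 CPM over the 12 libraries, among 12741 other genes, the patterns most like that of Slc16a12 were those of Crip2 (r = 0.98), Gss (0.98) and Serpinf2 (0.97), and most like that of Slc16a1 were Phf20 (0.95), Fis1 (0.91) and Prss8 (0.90). The 12 libraries fall into 4 groups and share depth and scaling, so these values describe likeness only. Crip2 had group means of 78.6 CPM in control, 87.5 in OA, 49.8 in BBR and 79.4 in BBR+OA cells, and Serpinf2 had 213.5, 275.2, 111.5 and 228.1 CPM.

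Among genes within 5000 bases of a carrier gene, Hcn2, which starts 4664 bases from Bsg on the same strand, was called higher with BBR (log2 fold change 0.67) and lower with OA (-0.57). Csnk1d, 880 bases from Slc16a3, was not called with BBR (-0.09) or with OA (0.02).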
